A study of Homo sapiens with 8 samples.

Results

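The 9 genes that encode the chains of the classical fibril-forming collagens (COL1A1, COL1A2, COL2A1, COL3A1, COL5A1, COL5A2, COL5A3, COL11A1 and COL11A2) were chosen by name from the 58735 genes counted in 8 RNA-seq libraries of the SRA01/04 line. SRA01/04 is an immortalised line of human lens epithelial cells. Of the 9 genes, 7 were among the 15647 genes that passed a filter on low counts, and COL2A1 and COL5A3 did not pass it. The 4 shSmurf1 libraries came from cells labelled as a Smurf1 knockdown and carried a short hairpin RNA targeting SMURF1, which encodes an E3 ubiquitin ligase of the HECT class with SMADs and TGF-β receptors among its targets. The 4 shControl libraries came from cells labelled WT that carried a control hairpin. All 8 libraries came from cells exposed to 20 ng/ml recombinant human TGF-β2 over 48 h, so every level below is a level under TGF-β2 and no library without it was compared. The comparison asks how transcript levels in the knockdown cells differ from those in control cells under this factor. The labels name no further hairpin against SMURF1 and no rescue, so effects of the lower SMURF1 and effects of anything else that sets the shSmurf1 cells off from the shControl cells cannot be told apart. They call the libraries biological replicates without saying that the cultures were separate, so p-values here rest on the spread among these 8 libraries, which may be technical.

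Fibrillar collagens are rods of wound α chains that line up outside the cell into banded fibrils. Type I collagen joins a pair of α1(I) chains (COL1A1) with an α2(I) chain (COL1A2), type III is built from α1(III) chains (COL3A1) alone, and the minor types V (COL5A1, COL5A2, COL5A3) and XI (COL11A1, COL11A2, with a product of COL2A1) sit inside fibrils, where they start fibril assembly and limit fibril width. Type II (COL2A1) and type XI are best known from cartilage and the vitreous of the eye. The lens capsule is made mainly of the network-forming type IV collagen, and types I and III are known as components of the fibrotic plaques that lens epithelial cells form in some cataracts and after cataract surgery.

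SMURF1 was present at 51.4, 50.4, 51.4 and 51.2 CPM (counts per gene scaled to a common library size) in shSmurf1, against 85.8, 93.3, 88.55 and 88.1 CPM in shControl. Its log2 fold change was -0.80 ± 0.0547 (SE), with an adjusted p of 2.86e-09 in edgeR's quasi-likelihood test with Benjamini-Hochberg adjustment over all genes tested. Its exons overlap those of TRRAP on the other strand by 735 bases, and the labels' protocols describe no step that keeps the strand. Library totals were 14688651 to 16789144 counts in shSmurf1 and 15000813 to 17030394 counts in shControl. The shSmurf1 replicate 3 library stood apart. The median deviation in log2 CPM of the 2280 genes with a GC content of at least 60%, minus that of the 2454 genes of at most 40%, was -0.285 in this library. In the other shSmurf1 libraries that difference was 0.171, 0.216 and 0.282, and in shControl it lay between -0.14 and -0.05. COL1A1 and COL5A1 have the most GC-rich transcripts of the highly expressed chains, at 61.1% and 60.3%, and their values are therefore also given without that library and with each library's GC trend removed. Of 16 lens epithelium and fibre markers, 3 passed the filter on low counts (PAX6, SIX3 and BFSP1). The other 13 did not, among them FOXE3, PROX1, CRYAA, CRYAB and CDH1, and LIM2 and SOX1 had 0 counts in all 8 libraries. The 16 markers summed to 46.5 to 57.4 CPM in shSmurf1 and 52.9 to 56.1 CPM in shControl, and SIX3 was lower in shSmurf1. PAX6, at 34.0 CPM in shSmurf1 and 33.3 CPM in shControl on average, shares 5241 exon bases with ELP4 on the other strand. Of 6 immune and endothelial markers, 2 were tested, and their sum was 14.1 to 16.7 CPM in shSmurf1 and 8.36 to 10.6 CPM in shControl. CD14, at 13.1 CPM in shSmurf1 and 6.76 CPM in shControl on average, carried this difference and was higher. VWF had a log2 fold change of -0.90 and did not pass (adjusted p = 0.0775, edgeR), and PTPRC, not tested, had 9 counts in all in shSmurf1 and 27 in shControl; the part of these markers in the collagen values was not tested.

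Of the 7 chains tested, 5 passed the test at an adjusted p under 0.05, but in opposite directions. COL3A1, COL5A2 and COL5A1 were higher in shSmurf1, at 2.47, 1.43 and 1.21 times their shControl levels. COL11A1 and COL1A2 were lower, at 24.3% and 49.7% of their shControl levels. COL1A1, the most highly expressed chain, and COL11A2 did not pass. Over all genes tested, 22.5% passed, 10.3% as higher and 12.2% as lower in shSmurf1. The median log2 fold change of the 7 chains was -0.09, beside 0.01 over all genes. The median size of their change, whatever its sign, was 0.51, beside 0.15 over all genes. The groups did not overlap in CPM for 4 of the 7, as for 23.7% of all genes tested. In bulk RNA, fewer cells of a type and less RNA per cell cannot be told apart.

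**Figure D1:**
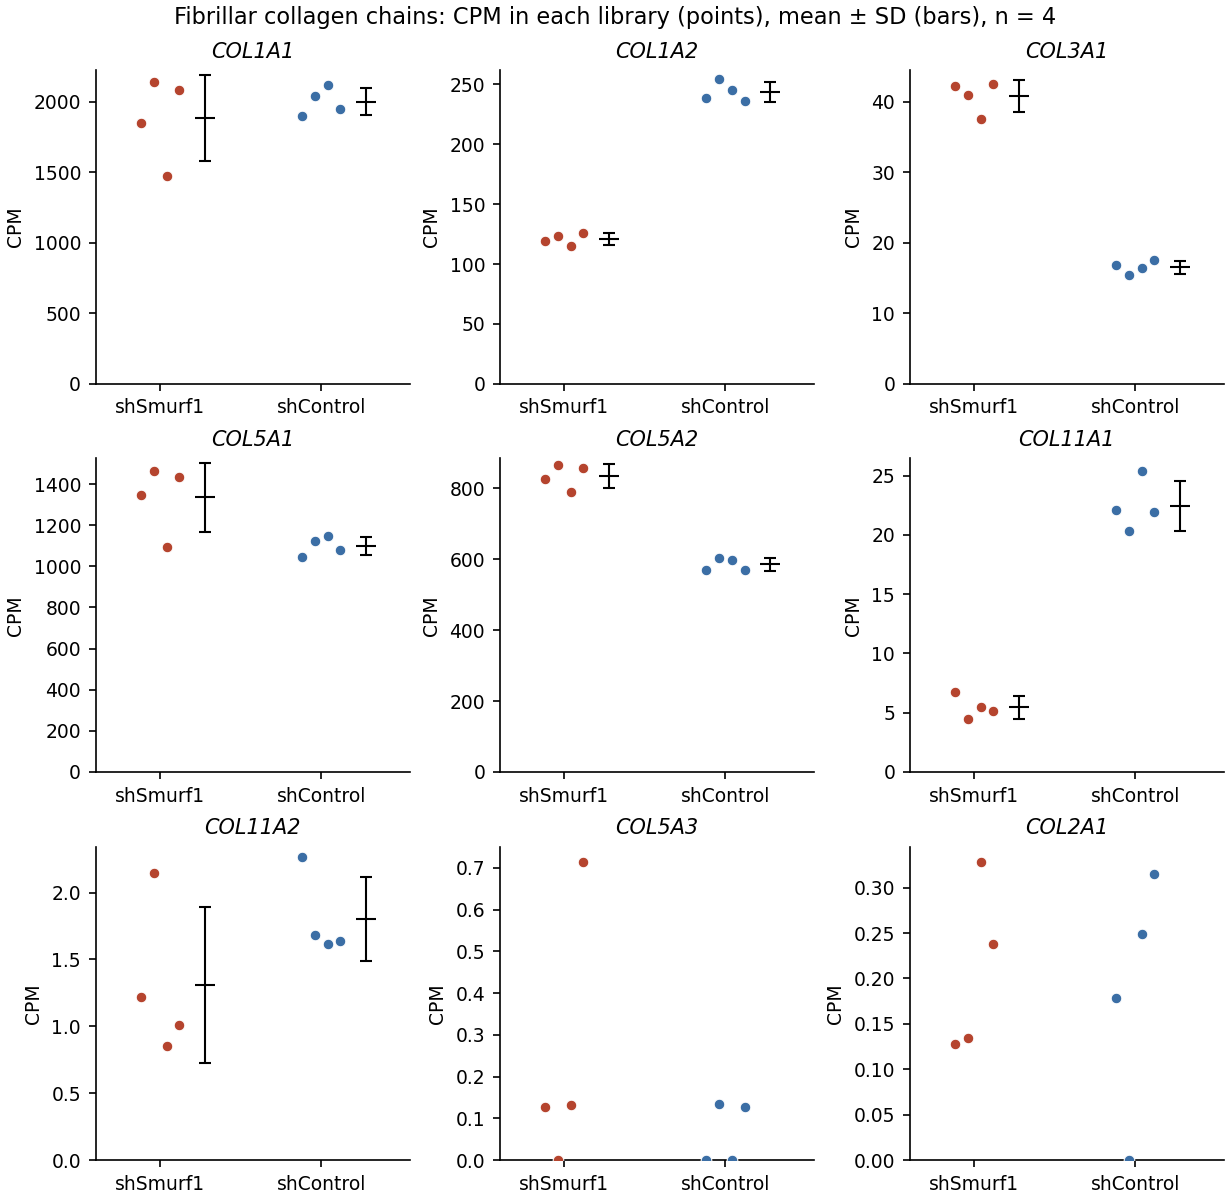
CPM of the 9 chains in each library on linear axes that start at 0, with shSmurf1 left of shControl; points are libraries in order of replicate number, and bars beside them are the mean ± SD (n = 4, not drawn for COL5A3 and COL2A1, which did not pass the filter). COL3A1 and COL5A2 are higher in every shSmurf1 library, COL1A2 and COL11A1 are lower in every shSmurf1 library, and the groups overlap in the other panels, with shSmurf1 replicate 3 lowest for COL1A1.

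The type I chains did not change together. COL1A1 (chromosome 17, 50183289 to 50201632, minus strand; all positions are GENCODE 29 on GRCh38) encodes the α1(I) chain. It was present at 1849, 2137, 1470 and 2080 CPM in shSmurf1, against 1900, 2041, 2115 and 1947 CPM in shControl. The groups overlapped, and the low value was that of shSmurf1 replicate 3. The means were 1884 ± 303 CPM in shSmurf1 and 2001 ± 96.2 CPM in shControl (SD, n = 4 each), the log2 fold change was -0.09 ± 0.0797 (SE) and the adjusted p was 0.486 (edgeR, as for all chains below). This value depended on GC content: with each library's GC trend removed, COL1A1 passed as lower in shSmurf1, at a log2 fold change of -0.19 ± 0.0465 and an adjusted p of 0.00322. Without shSmurf1 replicate 3 and with no such removal it was 0.02 ± 0.0402, with an adjusted p of 0.791.

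COL1A2 (chromosome 7, 94394561 to 94431232, plus strand) encodes the α2(I) chain. It was present at 119.7, 124, 115 and 126 CPM in shSmurf1, against 239, 255, 245 and 237 CPM in shControl. Every shSmurf1 library was below every shControl library, and shSmurf1 replicate 3 lay close to the others. The means were 121 ± 4.86 CPM and 244 ± 8.27 CPM (SD, n = 4 each), with a log2 fold change of -1.01 ± 0.05 (SE) and an adjusted p of 3.36e-11. Leaving out each library in turn gave log2 fold changes from -1.03 to -0.98.

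COL3A1 (chromosome 2, 188974320 to 189012746, plus strand) encodes the only chain of type III collagen, which forms fine fibrils and joins type I in scars. It was present at 42.2, 40.9, 37.6 and 42.55 CPM in shSmurf1, against 16.9, 15.4, 16.4 and 17.5 CPM in shControl. The lowest shSmurf1 library was above the highest shControl library by more than the whole range of either group. The means were 40.8 ± 2.26 CPM and 16.5 ± 0.916 CPM (SD, n = 4 each), and the log2 fold change was 1.30 ± 0.0775 (SE) with an adjusted p of 4.01e-10. Of the 15647 genes tested, 89 had a larger rise.

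The type V chains were both higher. COL5A1 (chromosome 9, 134641774 to 134844843, plus strand) encodes α1(V), the chain that all common forms of type V need. It was present at 1347, 1462, 1095 and 1435 CPM in shSmurf1, against 1047, 1124, 1148 and 1078 CPM in shControl. Replicates 1, 2 and 4 of shSmurf1 were above all shControl libraries, and shSmurf1 replicate 3 lay within the shControl range. The means were 1335 ± 167 CPM and 1099 ± 45.4 CPM (SD, n = 4 each), and the log2 fold change was 0.28 ± 0.0674 (SE) with an adjusted p of 0.00483. It was 0.37 ± 0.0355 without shSmurf1 replicate 3 and 0.19 ± 0.0391 with the GC trend removed, with adjusted p-values of 2.38e-09 and 0.000438 in the same test.

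COL5A2 (chromosome 2, 189031896 to 189225312, minus strand) encodes the α2(V) chain. It was present at 827, 866, 790.2 and 858 CPM in shSmurf1, against 571, 604.5, 598 and 569.6 CPM in shControl. The groups did not overlap, and their means were 835 ± 34.4 CPM and 586 ± 18.1 CPM (SD, n = 4 each). The log2 fold change was 0.51 ± 0.0452 (SE), with an adjusted p of 9.79e-08. COL5A3 (chromosome 19, 9959561 to 10010471, minus strand), the α3(V) chain of a few tissues, was barely detected, with 2, 0, 2 and 12 counts in shSmurf1 and 0, 2, 0 and 2 counts in shControl. It did not pass the filter, 270 bases of its exons are shared with an antisense gene (AC008742.1), and a count of 0 allows up to 3 counts by counting error alone.

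Among the chains of types XI and II, COL11A1 changed most. COL11A1 (chromosome 1, 102876467 to 103108872, minus strand) encodes α1(XI), which can also join type V chains in tissues other than cartilage. It was present at 6.73, 4.43, 5.46 and 5.19 CPM in shSmurf1, against 22.1, 20.4, 25.4 and 22.0 CPM in shControl. The highest shSmurf1 library was far below the lowest shControl library. The means were 5.45 ± 0.954 CPM and 22.45 ± 2.12 CPM (SD, n = 4 each), from 341 counts in all 4 shSmurf1 libraries and 1428 counts in the shControl libraries. The log2 fold change was -2.04 ± 0.121 (SE), with an adjusted p of 4.01e-10, and 18 of the 15647 genes tested had a larger fall.

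COL11A2 (chromosome 6, 33162681 to 33192499, minus strand), the α2(XI) chain, had 19, 32, 13 and 17 counts in shSmurf1, against 38, 25, 26 and 26 counts in shControl. The groups overlapped through shSmurf1 replicate 2. The log2 fold change was -0.47 ± 0.301 (SE) with an adjusted p of 0.296, so no difference was detectable at this depth. Leaving out a library gave log2 fold changes from -0.81 (without shSmurf1 replicate 2, adjusted p = 0.0747) to -0.32 (without shSmurf1 replicate 3). COL2A1 (chromosome 12, 47972965 to 48004554, minus strand), the type II chain of cartilage and vitreous, had 2, 2, 5 and 4 counts in shSmurf1 and 3, 0, 4 and 5 counts in shControl, and did not pass the filter. No library of either group held more than 5 counts of it. Among 8 cartilage markers, ACAN, MATN1, HAPLN1, COL9A1 and COL10A1 also failed the filter, COL9A1 with 0 counts in all 8 libraries. MATN3, COMP and CHAD passed the filter, and MATN3 and COMP rose. The adjusted p of COMP, 0.0401 (edgeR), rose above 0.05 in 5 of the 8 fits that left out a library. CHAD shares 270 exon bases with ACSF2 on the other strand. The 8 markers summed to 27.5 to 30.3 CPM in shSmurf1 and 19.1 to 23.5 CPM in shControl; their part in the collagen values was not tested.

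**Figure D2:**
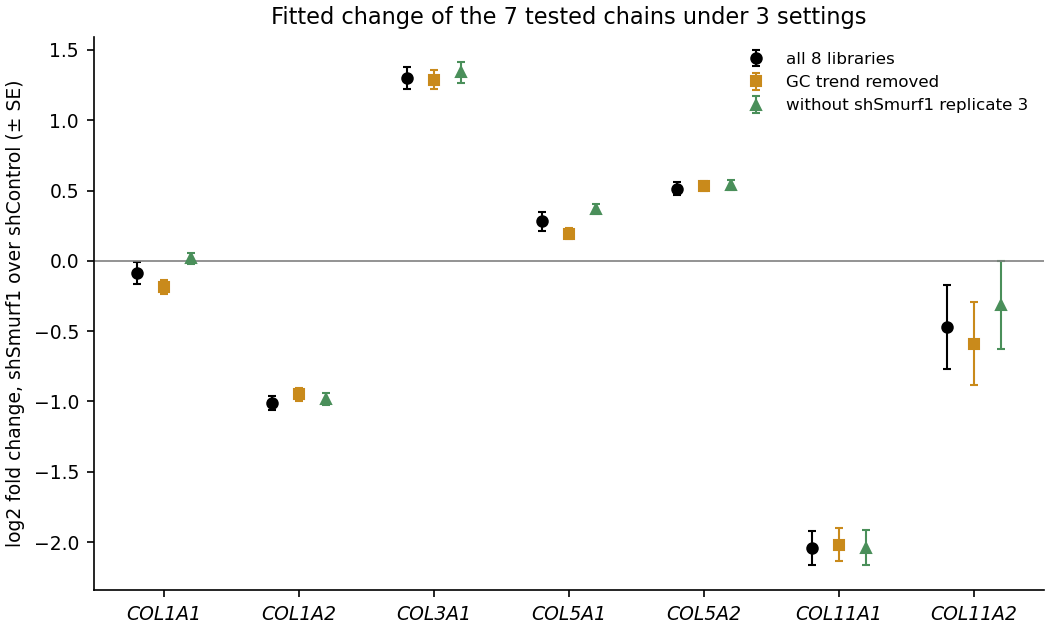
Fitted log2 fold change of shSmurf1 over shControl (± SE) for the 7 tested chains, with all 8 libraries (black circles), with each library's GC trend removed (ochre squares) and without shSmurf1 replicate 3 (green triangles). COL1A2, COL3A1, COL5A2 and COL11A1 hardly move between the settings, whereas COL1A1 lies at -0.09, -0.19 and 0.02 and COL5A1 at 0.28, 0.19 and 0.37.

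Levels of different genes can be set against each other only per length. In CPM per kilobase of merged exons, COL1A1 was highest, at 192 ± 30.8 in shSmurf1 and 204 ± 9.80 in shControl (SD, n = 4 each, as for the levels that follow). COL5A1 followed at 119 ± 14.9 in shSmurf1 and 98.2 ± 4.06 in shControl, and COL5A2 was at 112 ± 4.61 in shSmurf1 and 78.6 ± 2.43 in shControl. On this length, the ranges of mean ± SD of COL5A1 and COL5A2 overlapped in shSmurf1, whereas in shControl they lay apart. The overlap came with shSmurf1 replicate 3, the library whose GC-rich genes were low. Within libraries, COL5A1 was above COL5A2 in shSmurf1 replicates 1, 2 and 4 and below it only in replicate 3. With the longest transcript as the length, COL5A1 and COL5A2 lay apart in the shSmurf1 means too, at 158 and 118 CPM per kilobase. COL1A2 was far below COL1A1, at 10.9 ± 0.435 CPM per kilobase in shSmurf1 and 21.9 ± 0.741 in shControl. Its level depended on the length used. With the longest transcript, COL1A2 was at 20.2 in shSmurf1 and 40.7 in shControl, and COL1A1 at 280 and 297. COL3A1 was at 5.99 ± 0.331 in shSmurf1 and 2.43 ± 0.135 in shControl, and COL11A1 at 0.600 ± 0.105 in shSmurf1 and 2.47 ± 0.234 in shControl. In shControl, COL3A1 and COL11A1 thus stood at levels that did not differ beyond their spread, and in shSmurf1 COL3A1 was far above COL11A1. COL11A2 was at 0.194 ± 0.086 in shSmurf1 and 0.268 ± 0.046 in shControl, and COL2A1 and COL5A3 had averages under 0.05 CPM per kilobase in both groups. With the longest transcript as the length, the 7 tested chains kept the same order in each group.

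The 9 chains summed to 438, 482, 370.2 and 474 CPM per kilobase in shSmurf1, against 390.3, 417, 426 and 398 in shControl. The groups overlapped, and shSmurf1 replicate 3 held the lowest sum of the 8 libraries. Their reads were 0.425% ± 0.0527 of all counts in shSmurf1 and 0.393% ± 0.0183 in shControl. Within that sum, the make-up differed between the groups. COL1A1 made up 43.3% ± 2.13 of the summed level in shSmurf1 and 49.98% ± 0.440 in shControl (SD, n = 4 each). COL1A2 made up 2.48% ± 0.213 in shSmurf1 and 5.36% ± 0.151 in shControl. The share of COL5A2 was 25.6% ± 2.10 in shSmurf1 and 19.3% ± 0.334 in shControl, and that of COL5A1 was 27.0% ± 0.444 in shSmurf1 and 24.1% ± 0.110 in shControl. COL3A1 held 1.37% ± 0.108 in shSmurf1 and 0.597% ± 0.0523 in shControl. COL11A1 held 0.138% ± 0.0327 in shSmurf1 and 0.606% ± 0.0504 in shControl. These shares carry no test.

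Ratios of counts between chains within a library need no scaling factor, and 5 of them were compared with an exact permutation test of their log2 values. Each library's GC trend was not removed from these ratios, and the chains differ in GC content, as COL1A2 at 41.7% and COL1A1 at 61.1%. COL1A2 stood at 6.47, 5.79, 7.83 and 6.07 counts per 100 COL1A1 counts in shSmurf1, against 12.6, 12.5, 11.6 and 12.2 in shControl. COL1A2 was thus lower relative to COL1A1 in every shSmurf1 library, with a difference of -0.91 in log2 ratio. COL3A1 stood at 2.28, 1.92, 2.56 and 2.05 counts per 100 COL1A1 counts in shSmurf1, against 0.889, 0.753, 0.774 and 0.901 in shControl, a difference of 1.40 in log2 ratio. Every shSmurf1 library held more COL3A1 relative to COL1A1 than every shControl library. COL5A1 stood at 72.8, 68.4, 74.5 and 69.0 counts per 100 COL1A1 counts in shSmurf1, against 55.1, 55.1, 54.3 and 55.4 in shControl, a difference of 0.37. In this ratio shSmurf1 replicate 3 no longer lay with the shControl libraries.

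Within type V, COL5A2 stood at 61.4, 59.2, 72.2 and 59.8 counts per 100 COL5A1 counts in shSmurf1, against 54.5, 53.8, 52.1 and 52.8 in shControl. Its log2 ratio differed by 0.24, or by 0.17 when shSmurf1 replicate 3, the highest of these values, was left out. COL11A1, whose product can take the place of a type V chain, stood at 0.499, 0.303, 0.498 and 0.361 counts per 100 COL5A1 counts in shSmurf1, against 2.11, 1.81, 2.21 and 2.04 in shControl, a difference of -2.33 in log2 ratio. The groups did not overlap in any of the 5 ratios. Each gave a two-sided exact permutation p of 0.0286, also 0.0286 after Benjamini-Hochberg adjustment over the 5, which is the smallest that 4 libraries against 4 allow. The ratio of COL5A3 to COL5A1 was left out because COL5A3 did not pass the filter.

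**Figure D3:**
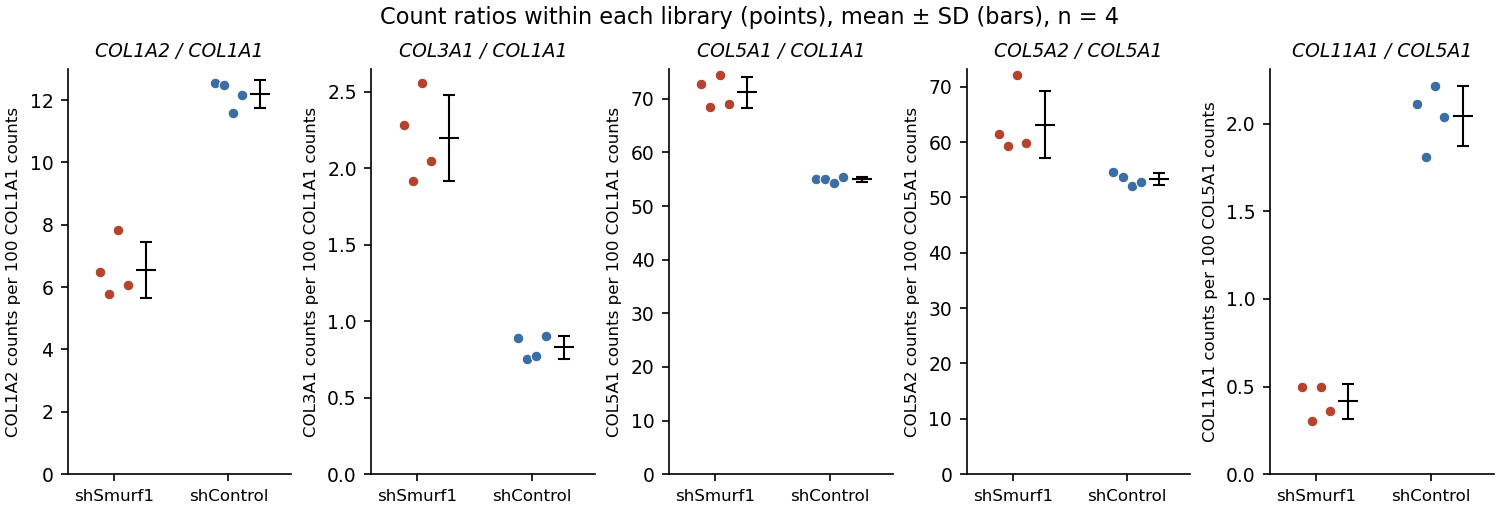
Counts of 1 chain per 100 counts of another within each library, on linear axes that start at 0, with shSmurf1 left of shControl; points are libraries in order of replicate number and bars are the mean ± SD (n = 4). The groups are apart in all 5 panels, and shSmurf1 replicate 3, at 72.2 COL5A2 counts per 100 COL5A1 counts, is the highest point of its panel.

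The start of these mRNAs is shown because COL1A1 and COL1A2 share most of their sequence there but only COL1A2 passed the main test. With each library's GC trend removed, COL1A1 also passed as lower, at a log2 fold change of -0.19 (adjusted p = 0.00322, edgeR). Whether the 2 chains differed in outcome thus depended on the processing. The mRNAs of type I and type III collagen carry a conserved stem-loop around the start codon that is bound by the protein LARP6. The windows of 27 bases below run from 12 bases before the start codon, which is in capitals, and were taken from GENCODE 29 transcripts on GRCh38.
COL1A1, start codon at chr17:50201511-50201513, minus strand: tagggtctagacATGttcagctttgtg
COL1A2, start codon at chr7:94395032-94395034, plus strand: taagtgctagacATGctcagctttgtg
COL5A2, start codon at chr2:189179602-189179604, minus strand: taatatttagacATGatggcaaactgg
COL5A1, start codon at chr9:134642188-134642190, plus strand: cgccccgccggcATGgacgtccatacc
COL11A1, start codon at chr1:103108176-103108178, minus strand: cggggctcggagATGgagccgtggtcc
The COL1A2 window, of a transcript that fell, shared 23 of 27 bases with that of COL1A1, which passed only with the GC trend removed. The COL5A2 window, of a transcript that rose, shared 13 of 27 bases with that of COL1A1. The windows of COL5A1 and COL11A1 shared 8 and 9 bases with that of COL1A1. All of these numbers include the start codon, on which the windows are aligned, and the number that unrelated windows share was not computed. LARP6 itself was at 46.0 ± 2.29 CPM in shSmurf1 and 49.9 ± 1.62 CPM in shControl (SD, n = 4 each), with a log2 fold change of -0.12 ± 0.0626 that did not pass the test (adjusted p = 0.193, edgeR). Its exons share 123 bases with those of LRRC49 on the other strand.

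The ends of the mRNAs share a different feature. The miR-29 family is known for repressing many collagen mRNAs in fibrosis, through 3′ UTR matches to its seed (bases 2 to 8, in capitals, RefSeq, GRCh38.p14). The 3 mature forms have the same seed. They are encoded on chromosome 7 (miR-29a and a copy of miR-29b) and chromosome 1 (miR-29c and the other copy of miR-29b).
miR-29a-3p: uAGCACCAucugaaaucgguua
miR-29b-3p: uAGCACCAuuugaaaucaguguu
miR-29c-3p: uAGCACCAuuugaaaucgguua
The match searched in the 3′ UTRs of protein-coding transcripts, on the transcript strand and with no other motif, was TGGTGCT. It is in capitals in a site of each chain that passed the test or is highly expressed.
COL1A1, chr17:50184568-50184591, minus strand: ggagggaatcacTGGTGCTataga
COL1A2, chr7:94430901-94430924, plus strand: gaagaatgttgaTGGTGCTagaag
COL3A1, chr2:189012004-189012027, plus strand: aaaatgtctcaaTGGTGCTataat
COL5A1, chr9:134843330-134843353, plus strand: ctcaatgaaaatTGGTGCTtattt
COL5A2, chr2:189032869-189032892, minus strand: ttcctttaatgaTGGTGCTaaaat
COL11A1, chr1:102877734-102877757, minus strand: tttgaatttcttTGGTGCTgtaga
Of the 9 chains, 8 held the match, COL5A1 at 4 places, COL5A3 at 3, COL3A1 and COL11A1 at 2, and COL1A1, COL1A2, COL2A1 and COL5A2 at 1, while COL11A2 held none. Of all 18800 3′ UTRs searched, 12.1% held it, and between 5.2% and 22.0% did among those of a length like each chain's. The match was thus present in chains that were higher (COL3A1, COL5A1, COL5A2) and lower (COL1A2, COL11A1). It was also present in COL1A1, which passed, as lower, only with the GC trend removed. Among the 12819 tested genes with a 3′ UTR, the 1797 with a match had a median log2 fold change of 0.01 (240 higher, 244 lower). The 297 of them with 2 or more matches had 0.04 (41 higher, 34 lower). The 11022 genes with none had 0.00 (1190 higher, 1535 lower). The levels of the miRNAs themselves were not measured in these libraries.

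Some chromosomal regions shared a shift between the groups, and each chain was therefore set beside the tested genes within 5 Mb of its midpoint. The 52 neighbours of COL1A2 had a median log2 fold change of -0.30, with 26 lower and 2 higher in shSmurf1. SMURF1 itself, whose midpoint lies 4.67 Mb from that of COL1A2 on chromosome 7, is among these neighbours. The 113 neighbours of SMURF1 had a median of -0.23, with 47 lower and 1 higher, and SMURF1 minus that median was -0.57. COL1A2 minus the median of its own 52 neighbours was -0.70. The 24 neighbours of COL11A1 had a median of -0.25, with 11 lower and 1 higher, and COL11A1 minus that median was -1.79. The part of these regional shifts in the values of COL1A2, COL11A1 and SMURF1 was not tested.

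The other chains lay in regions with medians closer to 0. COL3A1 and COL5A2 are convergent neighbours on chromosome 2, with 19.1 kb between their ends, and both rose. The 29 other tested genes around COL3A1 had a median log2 fold change of -0.035, with 4 higher, COL5A2 among them, and 6 lower. COL3A1 lay 1.34 above that median, and COL5A2 lay 0.55 above that of its own 29 neighbours. COL5A1 lay 0.215 above the median of its 136 neighbours, which was 0.065. COL1A1 minus the median of its 122 neighbours (0.10, with 22 higher and 5 lower) was -0.18. COL11A2 minus that of its 178 neighbours (0.05, with 22 higher and 8 lower) was -0.52. Within 2 Mb, 15 neighbours of COL1A1 were higher and 1 lower, and 13 of COL11A2 were higher and 1 lower.

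**Figure D4:**
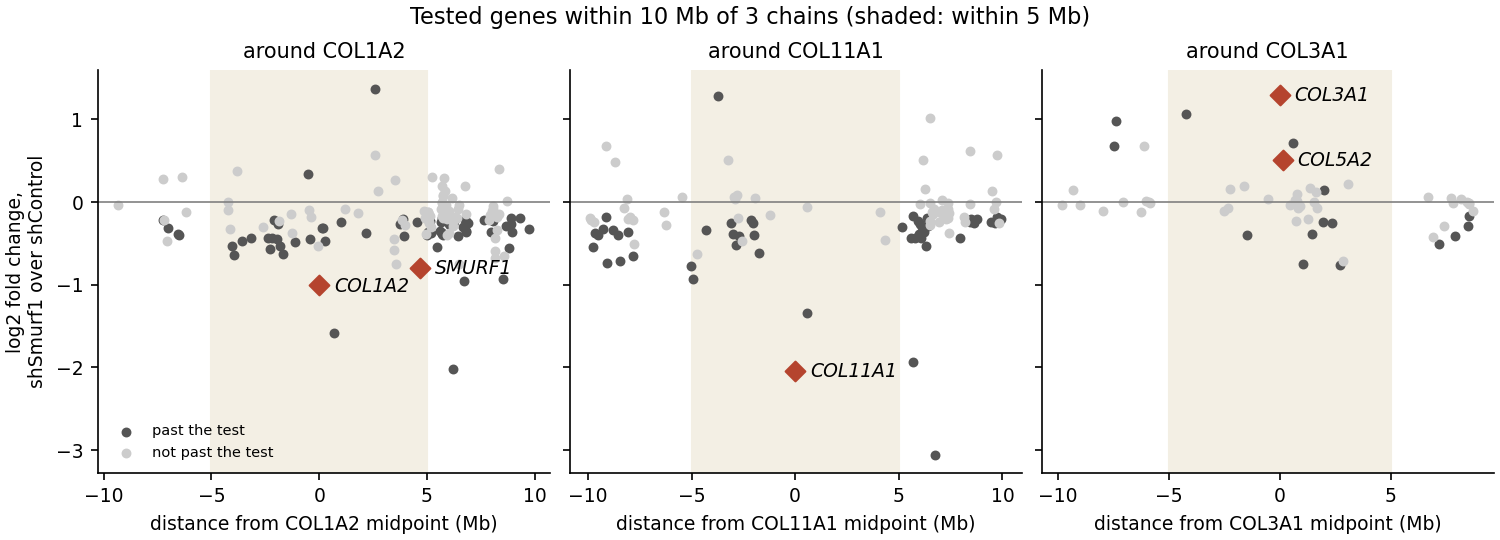
Log2 fold change of shSmurf1 over shControl for the tested genes within 10 Mb of COL1A2, COL11A1 and COL3A1, against the distance from that chain's midpoint in Mb; the shaded band is the 5 Mb on each side, dark points passed the test, light points did not, and diamonds are the named genes. Most dark points around COL1A2 and COL11A1 lie below 0, and both chains lie below most of their neighbours, while COL3A1 and COL5A2 stand above most of the genes around them.

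For each chain that passed, the protein-coding genes whose log2 CPM followed it most closely over the 8 libraries were found among 11170 genes, as the smallest root mean square difference after centring on the shControl mean. Nearest to COL1A2 were ARFGEF3 and CALD1, at differences of 0.0745 and 0.0843. CALD1, which encodes the actin-binding protein caldesmon, stood at 166 ± 3.73 CPM in shSmurf1 and 312 ± 14.9 CPM in shControl (SD, n = 4 each), a log2 fold change of -0.91 ± 0.0489 (SE). Nearest to COL3A1 were COLEC12, a scavenger receptor, TMEM59L and PCDH1, a protocadherin, at 0.0894, 0.104 and 0.108. Nearest to COL5A2 were OGDH, an enzyme of the citric acid cycle, COL12A1 and PTX3, a secreted pentraxin, at 0.0454, 0.0457 and 0.0523. Nearest to COL5A1 were CRTC1, ANKRD52 and TONSL, at 0.0314, 0.0357 and 0.0381. COL11A1 had no such close match: SMOC1, a secreted matrix-associated protein, TINAGL1 and DSC3, a desmosomal cadherin, were nearest, at 0.184, 0.212 and 0.246. All of these are genes with a change of like size, and the measure says nothing else about them. COL11A1 had 66 to 105 counts per shSmurf1 library, and 18 of the 15647 genes tested had a larger fall. The part of its low counts and large change in the larger differences was not tested.

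Genes that act on fibrillar collagens were described by counts from lists, each read beside the 22.5% of all genes that passed. Of 19 genes for procollagen modification and folding, all tested, 8 were lower and 2 higher in shSmurf1, with a median log2 fold change of -0.07. PLOD2, which hydroxylates telopeptide lysines for stable cross-links, was at 107, 106, 136 and 104 CPM in shSmurf1, against 184, 179, 181 and 174 CPM in shControl, and fell by 0.67 ± 0.0697 on the log2 scale. FKBP10, a chaperone that aids PLOD2, fell by 0.45 ± 0.0647. COLGALT2, a collagen galactosyltransferase, fell by 0.82 ± 0.254, with an adjusted p (edgeR, also for the p-values that follow) of 0.0238 that rose above 0.05 without shSmurf1 replicate 2 or without shControl replicate 4. SERPINH1, the collagen chaperone HSP47, did not pass at -0.02 ± 0.0493. Leaving out a library in turn gave 1 to 6 higher genes in this list, the 6 without shSmurf1 replicate 3.

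Of 6 genes for procollagen export, 3 were lower and 1 higher. SEC24D, a coat protein of the vesicles that carry procollagen, fell by 0.37 ± 0.0597, and MIA3 (TANGO1), which loads procollagen into them, rose by 0.26 ± 0.0612. MIA2 (cTAGE5), its partner, fell by 0.26 ± 0.0891, but the adjusted p of 0.0408 rose above 0.05 in 6 of the 8 fits that left out a library, and with the GC trend removed. CREB3L1, a factor that switches on secretion and collagen genes, did not pass at 0.09 ± 0.066. It passed without shSmurf1 replicate 3, but not when the GC trend was removed as well (log2 fold change -0.012, adjusted p = 0.897). MIA2 and MIA3 share exon bases with genes on the other strand.

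Of 12 tested genes for propeptide cleavage and cross-linking, 5 were higher and 1 lower, with a median of 0.15. LOX, which oxidises lysines to start cross-links, was the gene that fell, at 118, 128, 139.8 and 134 CPM in shSmurf1, against 317, 328, 318 and 311 CPM in shControl. The groups lay far apart, with a log2 fold change of -1.29 ± 0.0538 and an adjusted p of 3.88e-12. ADAMTS14, which removes the amino-terminal propeptide, rose by 1.61 ± 0.24 from low levels, with 211 counts in all in shSmurf1 and 70 in shControl. LOXL4, a relative of LOX, rose by 1.26 ± 0.35, also from low levels. It had 161 counts in all in shSmurf1 and 68 in shControl, and the groups overlapped in CPM. LOXL1 did not pass at -0.09 ± 0.0797, and passed as lower with the GC trend removed (adjusted p = 3.4e-05). LOX, LOXL1 and LOXL4 share exon bases with genes on the other strand (SRFBP1, LOXL1-AS1 and AL139241.1).

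Of 8 tested matrix proteins that bind fibrils, 5 were higher and none lower, with a median of 0.37. LUM, the small leucine-rich proteoglycan lumican, rose from very low counts: 39, 32, 30 and 34 counts in shSmurf1, against 3, 2, 9 and 4 in shControl, with a log2 fold change of 2.90 ± 0.371. POSTN, periostin, was at 32.0, 39.5, 40.5 and 32.7 CPM in shSmurf1, against 14.7, 15.6, 15.0 and 13.7 CPM in shControl, a rise of 1.29 ± 0.0931 with no overlap. COMP rose by 0.72 ± 0.244, but its adjusted p of 0.0401 rose above 0.05 in 5 of the 8 fits that left out a library, with the GC trend removed, and with the replicate number as a block (0.0583). BGN, biglycan, did not pass at 0.11 ± 0.0595. It passed without shSmurf1 replicate 3, but not when the GC trend was removed as well (log2 fold change -0.007, adjusted p = 0.943). The fibroblast markers, which include LUM and DCN, summed to 331 to 369 CPM in shSmurf1 and 316 to 329 CPM in shControl, with 2 of 6 tested higher (LUM and PDGFRB). THY1 was at 214 CPM in shSmurf1 and 212 CPM in shControl on average, PDGFRB at 117 CPM in shSmurf1 and 89.9 CPM in shControl, and FAP at 14.3 CPM in shSmurf1 and 11.8 CPM in shControl, while DPT had 0 counts in all 8 libraries and TCF21 and DCN did not pass the filter on low counts. THY1 and FAP share exon bases with genes on the other strand, and the part of these markers in the result was not tested.

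Among collagen-breakdown genes, 4 of the 6 tested were higher and none lower, with a median of 0.37. The group holds proteases and their inhibitors: TIMP2, which inhibits metalloproteinases, rose by 0.805 ± 0.0444 and MMP2, a gelatinase, rose by 0.32 ± 0.0795. MMP1, the interstitial collagenase that cleaves types I and III, rose by 2.005 ± 0.557 from few counts, 77 in all in shSmurf1 and 19 in shControl, and its adjusted p of 0.0129 rose above 0.05 without shControl replicate 1 or 2. Without shControl replicate 4 its log2 fold change was 2.81, and over the fits that left out a library the lowest was 1.70. Without shControl replicate 2, 2 genes of this list rather than 4 passed. MMP14 did not pass at -0.07 ± 0.0626, and passed as lower with the GC trend removed. MMP1 and TIMP2 share exon bases with genes on the other strand.

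The 8 collagen receptors divided, with 2 higher and 3 lower. ITGA11, the integrin chain of fibroblasts that binds fibrillar collagen, fell by 0.595 ± 0.0852, and ITGA1, which prefers the type IV network, rose by 0.45 ± 0.0611. DDR1 rose by 0.23 ± 0.0748, with an adjusted p of 0.0344 that rose above 0.05 in 7 of the 8 fits that left out a library, all but the fit without shSmurf1 replicate 3. MRC2, an endocytic collagen receptor, did not pass at 0.10 ± 0.0669. It passed without shSmurf1 replicate 3, but not when the GC trend was removed as well (log2 fold change -0.005, adjusted p = 0.932). Without shSmurf1 replicate 2 or 4, or shControl replicate 1, 3 or 4, the number of receptors that passed was 3 rather than 5. ITGA1 and MRC2 share exon bases with genes on the other strand.

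Among 15 tested regulators of fibrillar collagen genes, 3 were lower and 2 higher, with a median of 0.03. ETS1 fell by 0.48 ± 0.0493 and YBX1, known as a repressor of COL1A2 transcription, fell by 0.26 ± 0.045. SOX5, which drives type II and XI genes in cartilage with SOX9, fell by 0.45 ± 0.145, but its adjusted p of 0.0319 rose above 0.05 in 5 of the 8 fits that left out a library and with the GC trend removed. SP1, an activator of the type I promoters, did not pass at 0.08 ± 0.0473, and passed as higher with the GC trend removed (adjusted p = 0.0176). Between 3 and 9 regulators passed when each library was left out in turn, with 9 without shSmurf1 replicate 3 and 3 without shSmurf1 replicate 2 or 4.

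Of the more distant collagens, COL27A1, a fibrillar chain of another subfamily, did not pass at -0.18 ± 0.0969, and passed as lower with the GC trend removed (adjusted p = 0.0108 to 0.019 over 3 such fits). COL24A1, the other member of that subfamily, had 4 counts in all in shSmurf1 and 2 in shControl and was not tested. Of 10 fibril-associated collagens, which sit on fibril surfaces, 4 were tested and only COL12A1 passed, at 557, 608, 528 and 591 CPM in shSmurf1, against 391, 432, 436 and 382 CPM in shControl. These groups did not overlap, and COL12A1 rose by 0.48 ± 0.0554, with an adjusted p of 3.5e-06. COL16A1, which shares exon bases with a gene on the other strand, did not pass at -0.10 ± 0.135.

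**Figure D5:**
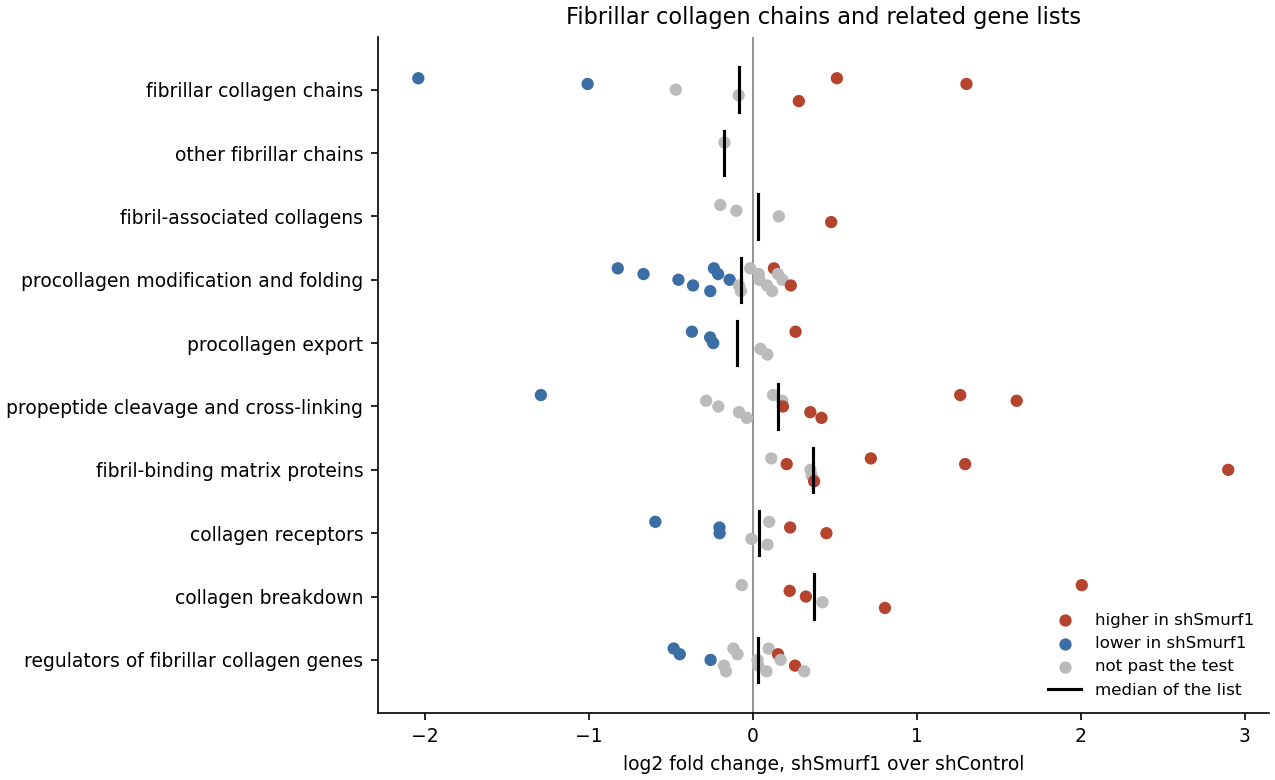
Log2 fold change of shSmurf1 over shControl for each tested gene of the fibrillar collagen chains and 9 related lists; red points were higher and blue points lower in shSmurf1 by the test, grey points did not pass it, and black bars are list medians. The 7 chains span from -2.04 (COL11A1) to 1.30 (COL3A1), and LOX at -1.29 is the only blue point in its list.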

How the data were processed

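Libraries of polyadenylated RNA from SRA01/04 cells were primed with random hexamers, per the labels' protocols, which mention no strand marking. The values deposited by the authors are raw counts of reads for each gene, not normalized. The tools named by the submitters' processing notes are CASAVA, fastp, featureCounts 1.5.0-p3 and HISAT2 2.0.5, and the build and gene models behind the counts were not given in the sources used here. All 58735 gene identifiers were found in GENCODE release 29 (GRCh38), which gave symbols, positions, exon lengths, GC content and transcript sequences.

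From the counts, 15647 genes were kept by filterByExpr with a minimum count of 10, scaled by TMM and tested with edgeR's quasi-likelihood F test (edgeR 4.0.16, R 4.3.3), two-sided, with no covariate, over the 4 shSmurf1 and 4 shControl libraries. Benjamini-Hochberg adjustment ran over all of them, and an adjusted p under 0.05 was a call. The standard error of a log2 fold change is its size over the root of F. With totals from 14688651 to 17030394 counts per library, chains with few counts were measured least precisely, and limits for a count of 0 cover counting error only. Ratios between chains used raw counts within a library, and levels between genes used CPM per kilobase of merged exons. On simulated data with 200 genes changed, the test was checked for the recovery of known fold changes. Genes with few counts were left out of the changed ones, and no GC trend was simulated. The check therefore does not cover chains with few counts, such as COL11A2, or the GC trend of shSmurf1 replicate 3.

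The 9 chains, the related lists and the marker lists (lens, fibroblast, cartilage, immune and endothelial) were chosen with earlier results of these data known. Named genes were SMURF1, the 9 chains, in each list the 3 or fewer called members that changed most and the most expressed member not past the test (all members of short lists, and COL12A1 and COL16A1 among fibril-associated collagens), and the 3 genes nearest to each changed chain. A gene that this rule names and a sequence are not reported here. LARP6 and the markers were named beside the results they touch, after their values were seen. Alternatives were DESeq2 size factors, library totals alone, DESeq2 1.42.0, limma-voom (limma 3.58.1), other filters on low counts, a replicate block, removal of each library's GC trend (lowess span 0.3), leaving out each library, and other windows and lengths.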

Additional observations from a re-analysis of the deposited data

Results flagged for a closer look

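In 44 groups of 4 libraries, 3 values stood apart from the others of their group by Dixon's test at the 95% level, which chance gives in about 1 in 20 groups. COL11A2 in shControl replicate 1 was at 2.27 CPM, above the other shControl libraries, and its share of the summed collagen level there, 0.0862%, stood apart as well. In shSmurf1 replicate 3, COL5A2 stood at 72.2 counts per 100 COL5A1 counts, above the other shSmurf1 libraries. This is the library whose GC-rich genes were low; COL5A1 has a GC content of 60.3% and COL5A2 of 47.9%, and the part of GC content in this value was not tested.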

How the results depend on the processing

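COL1A2, COL3A1, COL5A1, COL5A2, COL11A1 and SMURF1 kept their direction and passed under all 18 alternatives, and COL11A2 passed under none. COL1A1 passed as lower in the 3 fits with the GC trend removed. Over all genes, 3527 passed (1611 higher), against 2754 to 5341 (1216 to 2593 higher) when a library was left out, the largest numbers being without shSmurf1 replicate 3. The replicate numbers did not pair the libraries (correlations of same-numbered libraries from -0.063 to 0.03, and not every library correlated best with its own number). With a replicate block 3192 genes passed, and the 5 log2 ratios kept their values (-0.91 for COL1A2 over COL1A1, 1.40 for COL3A1 over COL1A1, 0.37 for COL5A1 over COL1A1, 0.24 for COL5A2 over COL5A1 and -2.33 for COL11A1 over COL5A1) with an exact p of 0.125, the smallest that 4 pairs allow. Leaving out a library, 3 to 6 collagen receptors, 2 to 4 breakdown genes and 3 to 9 regulators passed. With the GC trend removed, 1 of the other fibrillar chains (COL27A1) passed. The difference in the COL1A2 share, -2.88 points, was -3.25 on raw counts and -3.82 with the longest transcript as length; that of COL5A1, 2.93 points, was 3.91 and 3.66 under the same settings, and that of COL3A1, 0.771 points, was 0.556 on raw counts. No result changed sign past the threshold. Where a call changed, the cause was not tested beyond the alternative itself. Depth limits COL2A1, COL5A3 and COL11A2, and no value here measures protein.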
